A study of Drosophila melanogaster with 2 samples.

Results

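Cytosolic ribosomal protein genes of Drosophila melanogaster were examined for regions bound by a tagged homeodomain protein, Gsc-eGFP. They were taken as every protein-coding gene whose symbol begins with RpL, RpS or RpLP followed by a digit in the Ensembl annotation of the dm6 genome. This gave 92 of 13968 protein-coding genes on the 7 chromosome arms, 54 named for the large and 38 for the small ribosomal subunit. Genes with symbols ending in -like are included, and whether they code for ribosomal proteins was not checked. All 92 had the same coordinates in the RefSeq annotation. The choice rests on names alone and used no measured value, though it was made with earlier results of these data known.

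The measurements are chromatin immunoprecipitation followed by sequencing (ChIP-seq) of whole embryos collected from 0 to 24 h. The flies, strain Gsc-GFP, carried a transgene for a fusion of Gsc with enhanced green fluorescent protein, and the fusion was precipitated with an antibody against GFP, although the antibody field of the labels reads Gsc. Chromatin was sonicated to 200 to 800 bp. There was 1 group of 2 biological replicates from 1 donor strain, no other condition and no analysis of a control library, so every value below is a description without a test. Whole embryos mix all tissues and stages of embryogenesis, the regions are those of the tagged protein, and the labels do not give the promoter that drives the fusion.

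Ribosomal proteins assemble with ribosomal RNA into the large and the small subunit of the cytosolic ribosome. Their genes are transcribed strongly in nearly all growing cells, are short, often face a neighbouring gene start, and in flies often carry snoRNA genes in their introns. Many fly ribosomal protein promoters are known for a pyrimidine-rich initiator, the TCT motif, and for sites of DREF and M1BP, factors of constitutively active promoters. Gsc is the fly homologue of Goosecoid, and its class of homeodomain, with lysine at residue 50, prefers the word TAATCC.

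At 5 ribosomal protein genes (5.43%), against 5.34% of all protein-coding genes, a thresholded summit lay at most 500 bp from a transcription start site (TSS). All 5 summits were upstream, as were 86.1% of main-list promoter regions over all genes. The promoters of RpS27, RpL34b, RpL23A and RpL32 had the strongest regions, and their sequences are shown so that the words around the summits can be read. They come from the Release 6 reference genome (dm6), all from the minus strand and written 5′ to 3′. Each ends 30 bases after the start and begins up to 270 bases before it, or at the next annotated gene. RpS27 covers chr3R:25247485-25247657, RpL34b chr3R:9401197-9401494, RpL23A chr3L:1668625-1668900 and RpL32 chr3R:30046132-30046431. Capitals mark ACAGTG, a second word TTGCCA (read on the other strand as TGGCAA) and the E-box word CAGCTG. Of these, ACAGTG as well as TTGCCA were picked after sequences of these regions had been read.
RpS27: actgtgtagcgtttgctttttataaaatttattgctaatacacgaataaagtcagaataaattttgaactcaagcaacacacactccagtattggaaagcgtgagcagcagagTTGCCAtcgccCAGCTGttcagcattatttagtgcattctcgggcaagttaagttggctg
RpL34b: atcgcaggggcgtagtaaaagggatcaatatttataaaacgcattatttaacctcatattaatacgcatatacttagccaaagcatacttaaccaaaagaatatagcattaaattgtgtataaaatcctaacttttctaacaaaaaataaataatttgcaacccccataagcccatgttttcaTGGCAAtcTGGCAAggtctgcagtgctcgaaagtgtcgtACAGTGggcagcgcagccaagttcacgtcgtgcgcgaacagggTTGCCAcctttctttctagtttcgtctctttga
RpL23A: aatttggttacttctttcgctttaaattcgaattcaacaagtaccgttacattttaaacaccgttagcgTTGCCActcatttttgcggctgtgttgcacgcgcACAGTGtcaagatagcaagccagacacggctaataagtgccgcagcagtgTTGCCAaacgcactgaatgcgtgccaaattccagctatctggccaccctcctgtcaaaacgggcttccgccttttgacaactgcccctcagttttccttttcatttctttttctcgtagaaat
RpL32: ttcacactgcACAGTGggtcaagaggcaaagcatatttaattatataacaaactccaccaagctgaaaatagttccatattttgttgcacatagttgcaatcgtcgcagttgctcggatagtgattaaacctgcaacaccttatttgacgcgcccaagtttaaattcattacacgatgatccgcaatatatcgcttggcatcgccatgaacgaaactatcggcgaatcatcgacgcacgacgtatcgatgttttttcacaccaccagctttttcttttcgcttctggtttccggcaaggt

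In these sequences, with positions counted from the TSS, TTGCCA began at -30 and CAGCTG at -19 in RpS27. In RpL34b TTGCCA began at -3 and, on the other strand, at -85 and -77, with ACAGTG at -46. In RpL23A TTGCCA began at -177 and -93 and ACAGTG at -143, while in RpL32 ACAGTG began at -260. None of the 4 holds TAATCC, TATCGATA or GGTCACAC.

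Regions came from lists ranked by the irreproducible discovery rate (IDR), a measure of how well the ranks of a region match between 2 sets, and from shorter lists of the regions that pass a −log10 IDR of 2, a score of 830. The main list, made from both replicates, held 1655 regions, 1470 of them on the arms. Which 2 sets were ranked against each other for it is not stated, so passing its threshold is not shown to mean that a region recurred in both replicates. The ranked list behind it held 121914, and regions below the threshold that touch no main-list region are called sub-threshold here. A region was given to the protein-coding gene with the TSS nearest to its summit. Signal is the authors' value per region, and its scale is not stated. On the arms the main list had a median signal of 97.4 and a highest of 1323. Read counts are not among the values, and the depth is unknown.

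Of the 92 ribosomal protein genes, 4 (4.35%) were nearest to a thresholded region, against 8.26% of all protein-coding genes. They were RpS27, RpL34b, RpL23A and RpL5. Without replicate 1, in the list of replicate 2 alone, there was 1, RpL23A, against 5.13% of all genes. A further 37 (40.2%) had sub-threshold regions only, against 58.8% of all genes, and 51 (55.4%) had no ranked region, against 32.9%. Any ranked region was thus present for 41 ribosomal protein genes (44.6%), against 67.1% of all genes. More than in the whole gene set, ribosomal protein genes were left without a region of any strength.

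Counts within 500 bp of the TSS leave out distant regions. Of the ribosomal protein genes 3 (3.26%) were nearest to a thresholded region within 500 bp, against 3.77% of all genes. When a region counted for every TSS within 500 bp, whichever gene was nearest, there were 5 (5.43%), against 5.34%. RpL32 and RpL23 joined through regions nearer to a divergent neighbour. Both shares are near those of all genes. Without replicate 1 these counts were 1, against 2.54% of all genes, and 3, against 3.67%. Any ranked region within 500 bp was found for 28 (30.4%), against 48.8% of all genes, in the list of both replicates, for 36 (39.1%), against 49.8%, in the list of replicate 1 and for 24 (26.1%), against 45.4%, in that of replicate 2. Each replicate's own list therefore gave a lower share for ribosomal protein genes than for all genes.

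**Figure D1:**
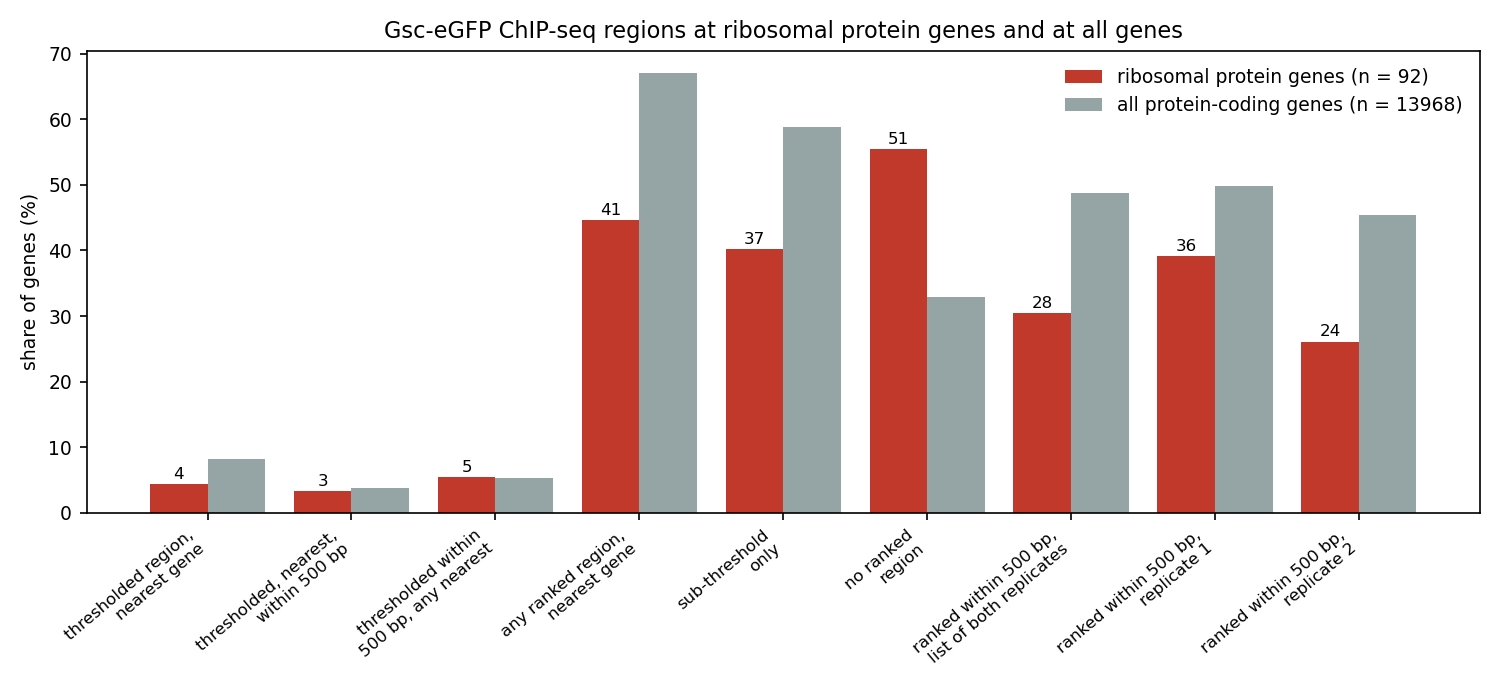
Share of genes (%, vertical axis) with each kind of region, for 92 ribosomal protein genes (red, left of each pair, number of genes above the bar) and 13968 protein-coding genes (grey). The shares with a thresholded region within 500 bp lie close together, 5.43% and 5.34% regardless of the nearest gene, while the shares with any ranked region are 44.6% and 67.1%.

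Ribosomal protein genes sit in tight surroundings. Whether this lowers the number of regions that a nearest-gene rule gives them was not tested. The stretch of chromosome nearer to their starts than to those of any other gene had a median of 2054 bp, against 4336 bp for all genes. With regions and lengths each summed over genes, ribosomal protein genes had 0.542 ranked regions per kb of such stretch, against 0.854 for all genes. Long stretches weigh most in these values, so they do not describe a typical short one. RpL5 alone held 91774 bp with 30 ranked regions and RpL15 71396 bp with 32, of 577 kb in all. Sorted by stretch, any ranked region was present for 17 of 46 ribosomal protein genes (37%) against 46.9% of all genes under 2 kb, for 12 of 29 (41.4%) against 62.2% from 2 to 5 kb, and for 12 of 17 (70.6%) against 80.4% at 5 kb and over. The share was below that of all genes in each size class, though lengths were not matched within a class. Thresholded regions were nearest to 2 of the 46 (4.35%, all genes 3.51%), 1 of the 29 (3.45%, 5.16%) and 1 of the 17 (5.88%, 12.8%).

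**Figure D2:**
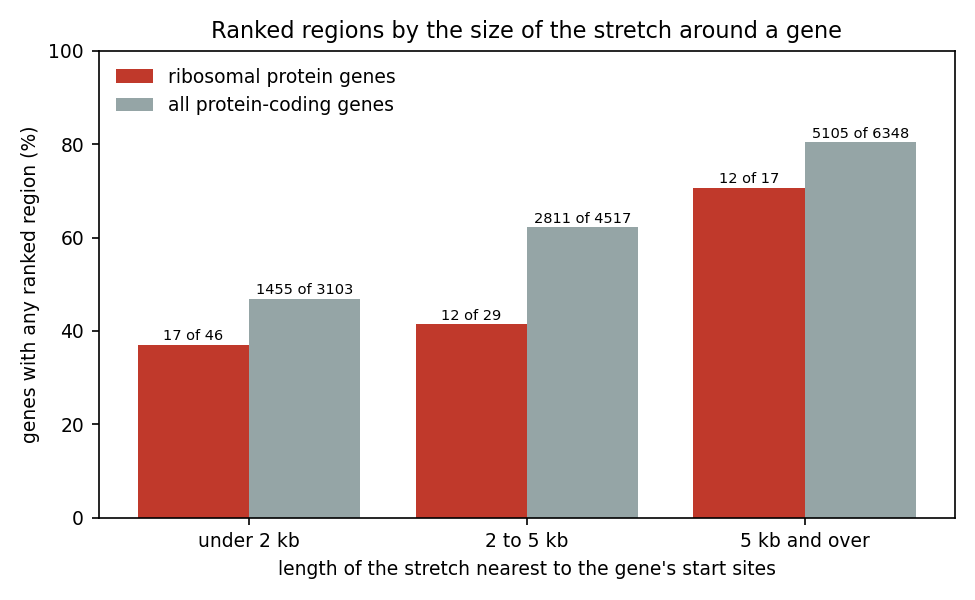
Share of genes with any ranked region (%, vertical axis) by the length of the stretch nearest to the gene's start sites (horizontal axis), for ribosomal protein genes (red, left) and all protein-coding genes (grey), with counts above the bars. The red bar is lower in each class, 37% against 46.9% in the shortest and 70.6% against 80.4% in the longest.

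Among small subunit genes, RpS27, which codes for a zinc-binding protein of the small subunit, had the only main-list region (3R, 25247478 to 25247562). Its summit lay 27 bp upstream of the TSS, between RpS27 and the divergent gene Nup37, whose TSS was 144 bp away. The region was only 85 bp wide, where the other main-list regions described here for ribosomal protein genes were 336 bp wide. Its signal was 200.4, rank 256 of 1470, and it was on the conservative list too. In the replicates' own lists it had a signal of 138.6 in replicate 1 and no region at all in replicate 2. Of the 1470 regions, 47 (3.2%) had no ranked region in replicate 2 and 15 had none in replicate 1. The value of RpS27 per replicate thus comes from replicate 1 alone.

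Among large subunit genes, RpL32, long used as a reference gene in fly expression studies under the name rp49, lay beside the strongest region (3R, 30046176 to 30046511). The summit was 183 bp upstream of RpL32 and 126 bp from CG7943, to which the nearest-gene rule gives it, and the 2 start sites are 309 bp apart. Its signal was 206.4 (rank 240), with 109 in replicate 1 and 91.3 in replicate 2, a mean of 100.3 ± 12.8 (SD, n = 2). It was on the conservative list and on both replicates' thresholded lists.

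RpL34b, 1 of a pair of large subunit genes with RpL34a, had its region at 3R, 9401188 to 9401523, with the summit 130 bp upstream. The signal was 178 (rank 312), with 123 in replicate 1 and 59.5 in replicate 2, a mean of 91.3 ± 45.0 (SD, n = 2), the widest spread of the regions seen in both replicates. In replicate 2 the summit was 174 bp upstream and nearer to CG8132, a divergent gene whose TSS is 269 bp away.

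RpL23A codes for a protein beside the exit of the peptide tunnel and hosts 4 snoRNA genes. Its region (3L, 1668586 to 1668921) had the summit 100 bp upstream and a signal of 143 (rank 435), with 84.2 in replicate 1 and 63.0 in replicate 2, a mean of 73.6 ± 15.0 (SD, n = 2). In replicate 2's thresholded list it was the only region nearest to a ribosomal protein gene.

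RpL5, whose protein binds 5S ribosomal RNA, was given its region by distance alone. The summit was 11591 bp downstream of the TSS, in intergenic sequence (2L, 22524891 to 22525226), within the 91774 bp nearest to RpL5. The signal was 69.3 (rank 1167), with 46.5 in replicate 1 and 21.9 in replicate 2, a mean of 34.2 ± 17.4 (SD, n = 2). It was absent from the conservative list and from replicate 2's thresholded list.

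RpL23, another large subunit gene, had a region 399 bp upstream whose nearest gene was CG13531, at 157 bp (2R, 22853816 to 22854151). Its signal was 84.7 (rank 886). The replicate regions that overlapped it longest had 25.1 in replicate 1 and 41.4 in replicate 2, both below the threshold score, although another overlapping region was on replicate 1's thresholded list. It was not on the conservative list. All 6 summits lay in intergenic sequence.

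**Figure D3:**
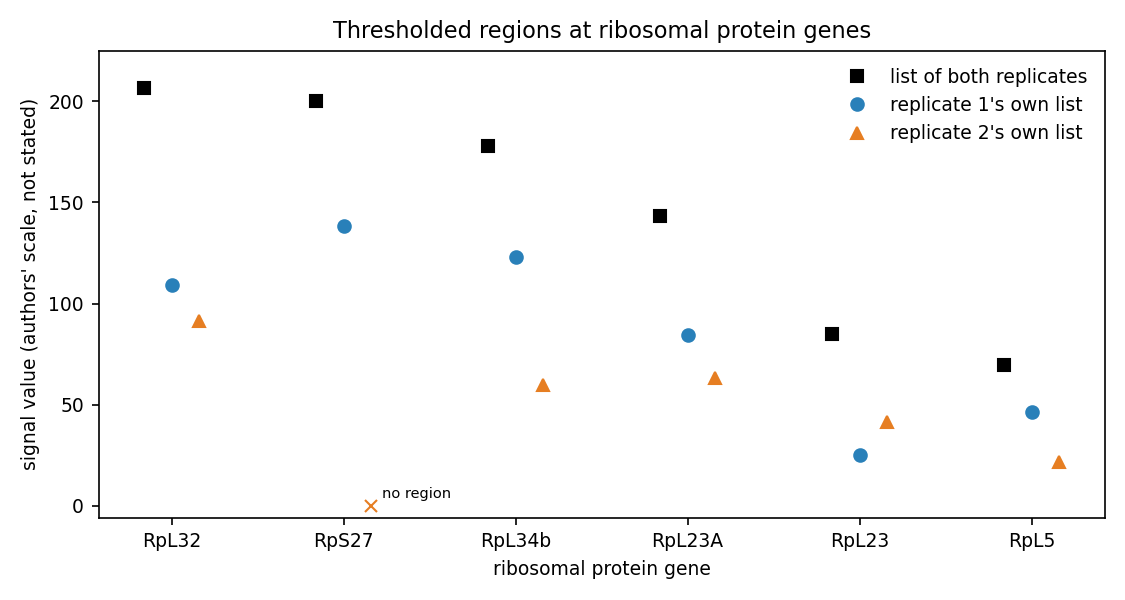
Signal (vertical axis, authors' scale) of the 6 main-list regions nearest to, or within 500 bp of, a ribosomal protein gene (horizontal axis), in the list of both replicates (black squares) and in the replicates' own lists (blue circles, orange triangles). RpL32 has 109 and 91.3 in the replicates, RpS27 has 138.6 in replicate 1 and no region in replicate 2 (cross), and only at RpL23 is replicate 2 the higher.

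The replicates' own thresholded lists added RpS28b and RpL41, both in replicate 1. RpS28b, a small subunit gene, had a region 51 bp upstream (X, 9554420 to 9554723) with a signal of 69.8, rank 553 of 1067 in that list. Neither replicate 2 nor the ranked list of both replicates had any region within 500 bp of its TSS. Of the 1067 arm regions thresholded in replicate 1, 96 lacked a region in the ranked list of both, as did 45 of the 843 in replicate 2. RpL41, which codes for a very short basic protein, had a summit 106 bp upstream with a signal of 51.2, nearer to the divergent gene NaCP60E (TSS 182 bp away). In the list of both replicates the region there had 55.8 and a score of 576, below the threshold, and replicate 2 had none within 500 bp.

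These single-replicate regions were part of a difference between the replicates at ribosomal protein start sites. Any ranked region within 500 bp was present in both replicates for 20 genes, in replicate 1 only for 16, in replicate 2 only for 4 and in neither for 52. Over all genes these numbers were 5016, 1934, 1326 and 5692. Replicate 2 thus shared 55.6% of the ribosomal protein genes of replicate 1, against 72.2% over all genes. Replicate 1 shared 83.3% of those of replicate 2, against 79.1%. A region in replicate 2 was rarer for ribosomal protein genes to begin with, at 26.1% against 45.4%, so these shares have unlike bases.

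The difference was also seen among the strongest start sites of replicate 1. Its 10 strongest ribosomal protein start sites were, from the highest, RpS27, RpL34b, RpL32, RpL23A, RpS28b, RpL41, RpL22, RpL17, RpS12 and RpL14, with signals of 37.1 and over. Only RpL34b, RpL32 and RpL23A had any ranked region within 500 bp in replicate 2, however weak. Of the 858 genes of any kind with a signal at least as high in replicate 1, 748 (87.2%) had one. Those 858 run up to a signal of 668.6, against 138.6 at ribosomal protein genes, so the 2 shares are not at like signal. In the other direction, the 10 strongest start sites of replicate 2, with signals of 15.9 and over, all had a region in replicate 1. Of 2952 genes of any kind with such signals, 2570 (87.1%) had one. The 2 cuts are unlike, since 6.14% of all genes reach 37.1 in replicate 1 and 21.1% reach 15.9 in replicate 2.

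RpL22, which also has a testis-enriched relative RpL22-like, had a signal of 48.5 in replicate 1 with the summit at -39 from the TSS, and RpL17, whose protein lines the peptide exit tunnel, had 41.4 at -60. RpS12, known in flies for its part in cell competition, had 37.3 at -437, and RpL14, a large subunit gene, had 37.1 at -47. All 4 are below the threshold score. RpS12 had no ranked region in the list of both replicates.

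The X chromosome carried much of this difference. Of its 14 ribosomal protein genes, 10 (71.4%) had a ranked region within 500 bp in replicate 1 and 3 (21.4%) in replicate 2, where all X-linked genes had 51% and 46.4%. On 2L it was 3 of 19 (15.8%) in replicate 1 and 2 (10.5%) in replicate 2, where all genes of the arm had 45.6% and 42.1%. On 2R it was 6 of 21 (28.6%) in each replicate, where all genes had 51.6% and 47.6%. On 3L it was 6 of 14 (42.9%) and 3 (21.4%), where all genes had 45.6% and 42.1%, and on 3R 11 of 23 (47.8%) and 10 (43.5%), where all genes had 55.4% and 49.4%. In replicate 1 the X chromosome alone had a higher share for ribosomal protein genes than for all genes. Whether depth or embryo collection differed between the libraries was not tested, since the files give neither.

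**Figure D4:**
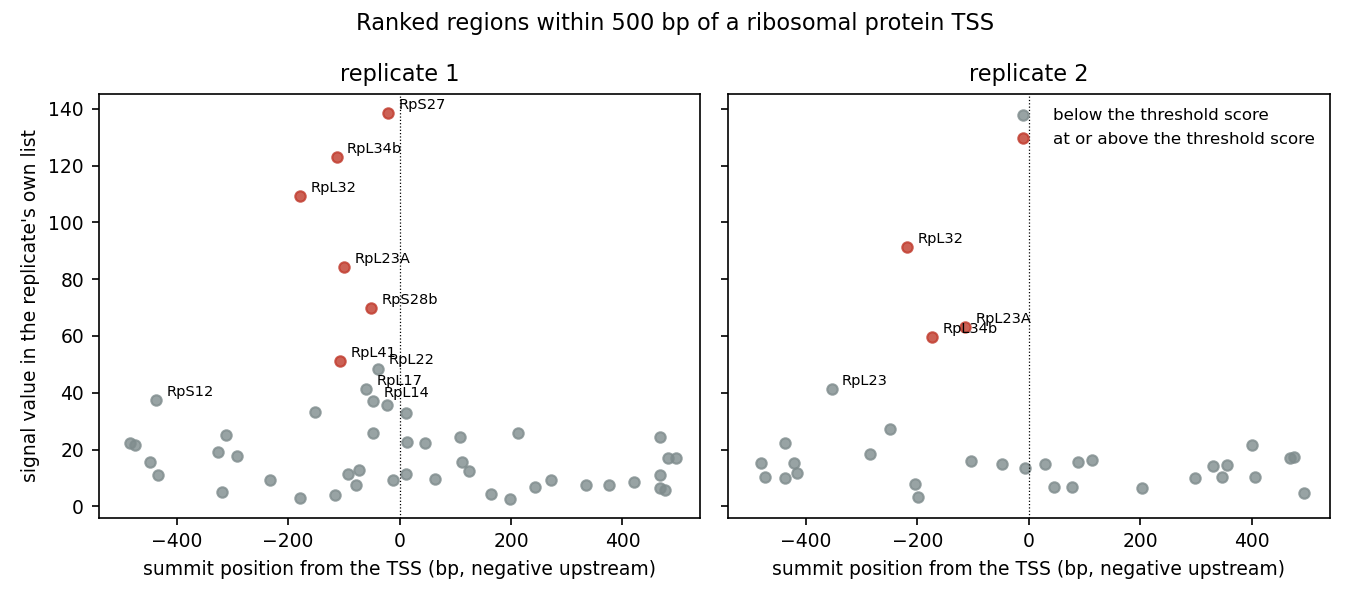
Ranked regions within 500 bp of a ribosomal protein TSS in each replicate's own list, by summit position from the TSS (bp, negative upstream, horizontal axis) and signal (vertical axis), with red points at or above the threshold score. Replicate 1 has regions just upstream of the TSS that run up to RpS27 at 138.6, and in replicate 2 only RpL32, RpL23A and RpL34b exceed the threshold.

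Among genes with a ranked region within 500 bp, the best signal per gene had a median of 23.5 for ribosomal protein genes in replicate 1, against 16.7 for all genes, and of 15.3 in replicate 2, against 15.2. In the list of both replicates it was 35.1, against 27.4. These medians cover only genes that have such a region.

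By subunit, large subunit genes had 3 with a thresholded region, 26 with sub-threshold regions only and 25 with none, and small subunit genes had 1, 11 and 26. By arm, 3R held 2 of the 4 genes with a thresholded region and 2L and 3L 1 each, with none among 21 genes on 2R and 14 on X. RpS3A, on chromosome 4, had no ranked region. Of the 28 genes that hold a snoRNA gene, 17 had no ranked region, and of the 64 others 34 had none. Over all protein-coding genes 8.26% had a thresholded region, 58.8% sub-threshold regions only and 32.9% no ranked region. No such split by arm or snoRNA gene over all genes is given here, so these are counts only.

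Below the threshold, ribosomal protein genes with high signals had their regions either far from the TSS or close to it. The distant ones were RpL38 (signal 59.7, summit 14267 bp from the TSS), RpL15 (48.5, 13176 bp) and RpL5 (45.9, 49538 bp). These large subunit genes lie in the pericentromeric parts of their arms, where genes are far apart.

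The close set held RpL22 (48.7, 39 bp), RpS19b (48.2, 400 bp), RpL14 (46.7, 50 bp) and RpL17 (46.5, 71 bp). At RpL22, RpL14 and RpL17 a region of replicate 1 overlapped it and replicate 2 had none within 500 bp. RpS19b, the relative of RpS19a expressed mainly in the germ line, had none within 500 bp in either replicate's own list.

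Over the 40 ribosomal protein genes with a sub-threshold region, the best sub-threshold signal had a median of 34.1 with quartiles of 21.2 and 43.2, against a median of 38.0 over 9274 genes. In all 308 sub-threshold regions were nearest to a ribosomal protein gene, with a median distance of 8219 bp to the TSS, against 5250 bp over all genes. Of the 308, 27 (8.77%) lay within 500 bp, against 8.44%. RpL10Aa had most ranked regions, 41, followed by RpL15 with 32 and RpL5 with 30, and the stretches nearest to them measure 31218, 71396 and 91774 bp.

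Position relative to the TSS was alike in the strong regions. Summits at RpS27, RpL34b, RpL23A, RpL32 and RpL23 all lay upstream, as did 457 of 531 main-list promoter regions of all genes (86.1%). Of the 27 sub-threshold regions nearest to a ribosomal protein TSS and within 500 bp of it, 15 (55.6%) were upstream, against 39.8% over all genes. A divergent start site within 1 kb was present for 55 ribosomal protein genes (59.8%), against 35.2% of all genes. Of those 55, 4 (7.27%) had a main-list region within 500 bp, against 9.79% of all genes with such a neighbour, and 17 (30.9%) had any ranked region there, against 42.5%.

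Promoter words were read on both strands in the 250 bases before to 50 after the gene's 5′ end. TATCGATA, the DREF word, was in 28 ribosomal protein promoters (30.4%), against 9.36% of all promoters, and GGTCACAC, a core of the Motif 1 bound by M1BP, in 14 (15.2%), against 7.69%. TAATCC was in 8 (8.7%), against 8.73%. CATATG was in 4 (4.35%), against 7.81%, CAGCTG in 9 (9.78%), against 17.6%, and GAGAG, the word of GAGA factor, in 16 (17.4%), against 29.7%. CTTTT starting within 2 bases of the annotated TSS on the gene's strand, a strict reading of the TCT initiator, was in 3 (3.26%), against 0.816%. Words can overlap, and each was counted on its own, once per promoter.

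None of the 5 promoters with a main-list region within 500 bp held TATCGATA, GGTCACAC or TAATCC, and of the other 87, 28 (32.2%) held TATCGATA, 14 (16.1%) GGTCACAC and 8 (9.2%) TAATCC. With 5 promoters such a count is a description only. CAGCTG was in 1 of the 5, that of RpS27. Within 100 bp of the 6 summits, ACAGTG was present at RpL23A, RpL32 and RpL34b, and TTGCCA at RpL23, RpL23A, RpL34b and RpS27. Both words were picked after sequences of these regions had been read, so their presence there carries no weight. GAGAG was present at RpL5.

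Over all genes, ACAGTG was within 100 bp of the summit in 22.2% of main-list regions and 8.13% of sub-threshold regions, and in promoters in 21.1% and 9.45%. TTGCCA was less frequent in main-list than in sub-threshold regions, at 14.1% and 21.1%, and in promoters at 16.2% and 18.4%. TAATCC was in 6.33% and 5.93%. In promoters of ribosomal protein genes TTGCCA was in 24 (26.1%), against 25.3% of all promoters, and ACAGTG in 19 (20.7%), against 13.9%.

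Some genes come in pairs whose symbols name the same ribosomal protein. Some pairs include a gene with a symbol ending in -like, such as RpL7-like, RpL24-like and RpLP0-like. Whether these code for ribosomal proteins was not checked. Of 13 such pairs 8 had members in different classes, a count with no comparison behind it. RpL34b had its thresholded region, while RpL34a had no ranked region. RpS28a had a sub-threshold region of 36.6, 26 bp from the TSS, and the strong region of RpS28b was seen in replicate 1 alone. RpS19b and RpL10Aa had sub-threshold regions and their relatives RpS19a and RpL10Ab none. Reads from near-identical copies such as RpS14a and RpS14b cannot be placed with certainty, and how such reads were treated is not given in the sources used here.

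Other genes of translation gave a frame for these counts. Of 73 mitochondrial ribosomal protein genes, which serve the ribosome inside mitochondria, 7 (9.59%) had a thresholded region and 35 (47.9%) any ranked region. Over all genes these shares were 8.26% and 67.1%. The share with any ranked region was thus below that of all genes, as at cytosolic ribosomal protein genes (44.6%). The strongest mitochondrial ribosomal protein genes were mRpS10 at a signal of 798, mRpL41 at 773, mRpL23 at 669 and mRpL37 at 99.3, all within 130 bp of the TSS. The 3 highest of these exceeded every main-list region at a cytosolic ribosomal protein gene, where the highest was 206.4.

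Of 44 translation initiation factor genes 3 (6.82%) had a thresholded region and 28 (63.6%) any ranked region, against 8.26% and 67.1% of all genes. eIF6, which also acts in maturation of the large subunit, had 728 at 99 bp upstream, eIF5B, a subunit-joining GTPase, 93.2 at 137 bp upstream, and eIF4B, a helicase cofactor, 154 at a distance of 129898 bp. Of 7 elongation factor genes only eEF1gamma (14.3%) had a thresholded region, 5733 bp upstream with a signal of 414. Any ranked region was present for 3 of them (42.9%). Of 22 ribosome assembly genes matched by name, eIF6 alone (4.55%) had a thresholded region and 11 (50%) had any ranked region. sta and Rack1, ribosomal proteins under other names, had no thresholded region, and 1 of the 2 had a ranked region.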

How the data were processed

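Whole embryos of 0 to 24 h, 2 biological replicates, were measured by ChIP-seq, per the labels on dm6. Which aligner and peak caller were used is not given in the sources used here. Ranked and thresholded region lists were deposited by the authors for each replicate and for both together. Signal is the authors' value per region, used within 1 list. The deposited score is the scaled IDR, with a lowest thresholded score of 830, and the −log10 IDR deposited by the authors was used to describe regions. Another 32 unnamed columns were not used. Depth is unknown and no test was made.

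Summits on the 7 arms were given to the nearest TSS of a protein-coding gene (Ensembl release 115), ties to every tied gene, with Python 3.11.15, NumPy 2.4.6 and matplotlib 3.10.9. Values per replicate came from the region with the longest overlap, at least 1 bp, in its own ranked list. Another 301 ranked regions at or above the threshold score but absent from the main list, 0 of them nearest to a ribosomal protein gene, were not counted as thresholded. The assignment was tested on simulated data.

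The members and lists were chosen with earlier results of these data known. Named were all ribosomal protein genes with a thresholded region in any list or within 500 bp of one, the 8 with the highest sub-threshold signal, the 3 with most ranked regions, and up to 4 genes per other list. A gene that this rule names is not reported here. RpS12, RpS3A and the related gene pairs were named after their values were seen. In all 39 alternatives were planned and 6 added after seeing the data. Symbols CG7637, RpI1 and RpI135 matched no gene.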

Additional observations from a re-analysis of the deposited data

How the results depend on the processing

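Of 45 alternative values 27 stayed close to those reported. For counts the limit was a ratio of 1.5, so a change from 4 genes to 3 still passed as close. No paired analysis was possible because there is only 1 group. With 1 replicate left out, genes nearest to a thresholded region numbered 1 to 5 (4 as reported), where all genes had 5.13% and 6.41%. Those nearest within 500 bp numbered 1 to 4 (3), where all genes had 2.54% and 3.29%. Those within 500 bp of any thresholded region numbered 3 to 6 (5), where all genes had 3.67% and 4.76%. Other translation genes nearest to a thresholded region numbered 7 to 11 (11). Over all genes that share was 8.26% as reported and 5.13% without replicate 1. The low values all come without replicate 1. In the strongest 10% of the ranked list 15 ribosomal protein genes had a region, against 34.9% of all genes. With every ranked region instead of the thresholded ones, an alternative added after seeing the data, the count within 500 bp was 28, and 24 to 36 with 1 replicate left out.

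The median distance of the 4 regions was 115 bp, and 100 bp in the conservative list, in the stronger 50% of regions and with all annotated genes, and 100 to 114 bp with 1 replicate left out. Their median signal was 160, and 178 in the conservative list and in the stronger 50%. In single replicates it was 63.0 to 84.2, and the median best sub-threshold signal 18.2 to 20.6 (34.1 in the list of both). Without replicate 1 the distance of 114 bp and the signal of 63.0 are those of 1 region, at RpL23A. Signals of single replicates and of both together come from separate lists and are not on a shared scale. TATCGATA was in 28 promoters under either choice of TSS.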
